A study of Drosophila melanogaster with 7 samples.

Results

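The Notch pathway and its endocytic modulators were followed in Drosophila embryos that lack zygotic function of lola, a gene for BTB zinc-finger transcription factors of axon growth. The list held 10 genes: the receptor gene N, the ligand gene Dl, fng and O-fut1, Nak and Dap160, bun, Su(H), mam and kuz. A feature, that is 1 spotted cDNA clone, counted for a gene when the platform annotation gave it that gene as its single symbol. By this rule 7 of the 10 genes were on the arrays, with 10 features of the 10227 tested. N, Su(H) and kuz had no feature under the rule and were not analysed here. Each of 7 two-colour arrays set RNA of lola mutant embryos against RNA of control embryos collected in parallel. The mutants had the allele lolaORE76 on both second chromosomes, recombined with sca-GAL4 on one and with UAS-tau-eGFP on the other, and the controls were sca-GAL4/UAS-tau-eGFP. Both genotypes thus shared the w1118 background, the driver and the reporter, and embryos were sorted by their fluorescence in the central nervous system. Embryos were aged from 10 to 12 hours after egg laying, and about 300 whole embryos were pooled for each RNA sample. The ORE76 allele has an early stop codon in the part common to all Lola isoforms. A single lola allele was put on both recombinant chromosomes, so modifier loci on the mutant chromosome cannot be told apart from lola, and the embryos also hold Lola from the mother.

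Notch is a receptor that passes signals between touching cells. A ligand on the neighbouring cell, such as Delta, pulls on it, proteases including Kuzbanian and the presenilin complex cut it, and its freed intracellular part joins the DNA-binding protein Su(H) and the co-activator Mastermind to switch on targets such as the Enhancer of split repressors. Sugars added to the receptor by O-fut1 and then by Fringe set how it responds to its ligands, and endocytosis of receptor and ligand sets how much of each is active. In the embryonic nervous system the pathway limits how many cells become neuroblasts and separates the fates of sister cells, and it also acts in growing axons.

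Values are log2 ratios of mutant over control, the likely direction, with 1 value per array. The signs of the deposited values were turned, because 14 of 14 clones that the study also lists with a direction had the opposite sign as deposited. Mutant RNA was labelled with Cy5 on 3 arrays (1, 3 and 6), and with Cy3 on 4 (2, 4, 5 and 7). Ratios carry no level, so they show neither how strongly a gene is expressed nor whether a tissue's markers are present. Array 6 stood apart from the others: its SD over all values was 0.425, against at most 0.337 on any other array, and a mean over 7 measured muscle genes was -1.53 there and between -0.44 and 0.66 on the other arrays. Where leaving out array 6 ends or makes a call, turns a sign, or moves a mean of a named feature by over 1.5 times, the value without it is given too. RNA of whole embryos was measured, so fewer cells of a type and less RNA per cell cannot be told apart.

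O-fut1, bun and Nak rose and Dap160 fell in lola mutant embryos, by 1.23-fold to 1.34-fold, while Dl, fng and mam did not pass the test. In all, 4 of the 10 member features passed at an adjusted p of 0.05, with 3 higher and 1 lower, where 6.11% of all features tested passed. Counted as genes this was 4 of 7, beside 6.04% of the 7583 genes on the arrays. The list was drawn up with these results known. All 4 called members are genes that the study picked from these same arrays as altered and linked to Notch signalling. The larger share of calls was thus set by this choice and cannot be read as a result about the pathway. The median of the 10 member means was 0.13, beside -0.01 for all features, and 9 of the 10 means were above 0. The called members are among these 10, so these values cannot be read as a result about the pathway either. The SD of a member over the 7 arrays ran from 0.11 to 0.29, where the median feature had 0.19.

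**Figure D1:**
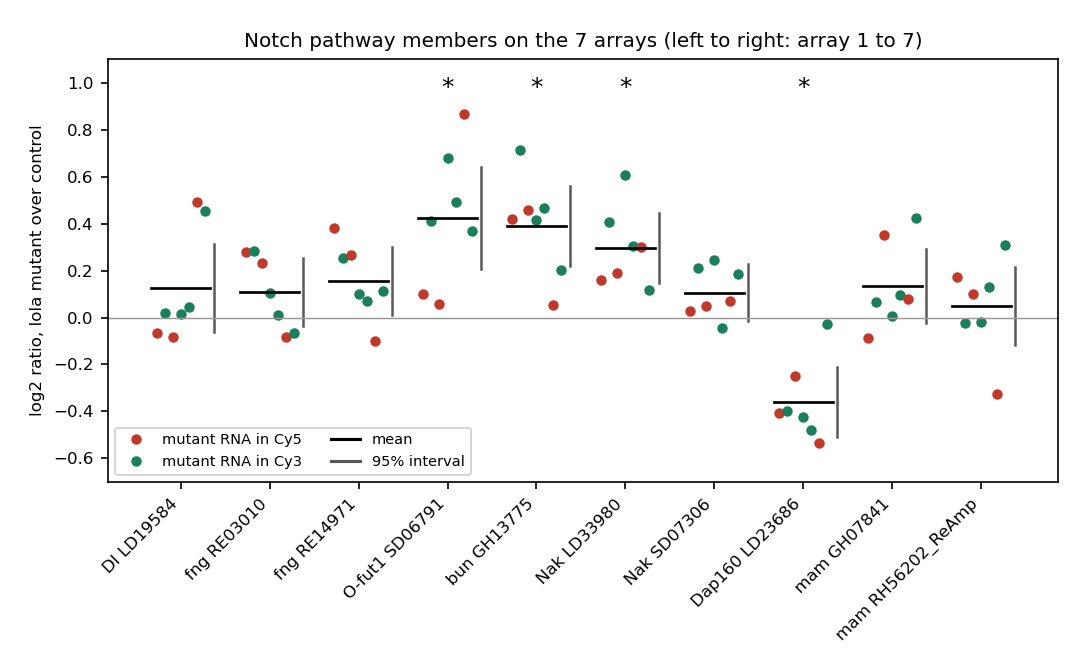
Log2 ratio of lola mutant over control for the 10 features of the 7 measured members on each of 7 arrays, drawn from left to right as arrays 1 to 7 and coloured by the dye of the mutant RNA; black bars are means, grey bars 95% intervals from limma, and asterisks mark an adjusted p under 0.05. All 7 points of O-fut1, bun and Nak LD33980 lie above 0 and all 7 points of Dap160 lie below 0, while the points of Dl, fng, mam and Nak SD07306 lie on both sides.

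The ligand gene Dl was carried by clone LD19584, and most of its mean came from 2 arrays. Its log2 ratios on arrays 1 to 7 were -0.07, 0.02, -0.08, 0.01, 0.05, 0.49 and 0.45. Arrays 6 and 7 were thus far above the other 5, which lay close to 0. The mean was 0.12 ± 0.24 (SD, n = 7), with 95% limits of -0.06 and 0.31 and an adjusted p of 0.472 in limma. It fell to 0.06 without array 6 and to 0.07 without array 7 (adjusted p = 0.696 and 0.756). On arrays 6 and 7 the muscle marker mean was below 0 (-1.53 and -0.44), whereas it was above 0 on the other 5. The tracheal marker mean had the same split (-0.53 and -0.15, elsewhere 0.08 to 0.22). That of epidermis and cuticle was also lowest on these arrays (-0.97 and -0.24), with array 4 at -0.05. The remaining marker lists did not split in this way. The part of these shifts in the Dl values was not tested.

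O-fut1 encodes the enzyme that adds fucose to the extracellular repeats of Notch, and in flies its protein also helps the receptor to fold and move. Its clone SD06791 gave 0.10, 0.41, 0.06, 0.68, 0.49, 0.87 and 0.37 on arrays 1 to 7. All 7 values were above 0, with arrays 1 and 3 lowest and array 6 highest. The mean of 0.43 ± 0.29 (SD, n = 7) equals a 1.34-fold rise, with log2 limits of 0.21 and 0.64 and an adjusted p of 0.0316. Of the 4 called members it varied most between arrays, and its call was lost without array 2, 4, 5 or 7 (adjusted p = 0.0921, 0.107, 0.0925 and 0.0681). Without array 6, its highest value, it passed with an adjusted p of 0.0431.

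Fringe, the enzyme that extends this fucose and thereby shifts the response of Notch from one ligand to another, was measured by a pair of clones. Clone RE14971 gave 0.38, 0.25, 0.27, 0.10, 0.07, -0.10 and 0.11 on arrays 1 to 7, with a mean of 0.15 ± 0.16 (SD, n = 7; adjusted p = 0.218). Clone RE03010 gave 0.28, 0.28, 0.23, 0.11, 0.01, -0.08 and -0.07, with a mean of 0.11 ± 0.16 (adjusted p = 0.404). Both clones were highest on arrays 1, 2 and 3 and lowest on array 6, and their difference of -0.05 ± 0.08 was small (exact sign-flip permutation test over 7 arrays, two-sided, p = 0.172; 0.258 adjusted over the 3 genes with a pair of clones). Without array 6 the adjusted p values were 0.0894 and 0.251, so neither clone passed then either. Neither fng nor Dl is on the second chromosome, which carries lola.

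Nak, a kinase named for its binding to Numb and related to the mammalian kinases of the clathrin adaptor AP-2, rose on one of its clones. Clone LD33980 gave 0.16, 0.41, 0.19, 0.61, 0.30, 0.30 and 0.12 on arrays 1 to 7. Every array was above 0 and array 4 was highest. The mean was 0.30 ± 0.17 (SD, n = 7), a 1.23-fold rise with log2 limits of 0.15 and 0.45 and an adjusted p of 0.0295. The other clone, SD07306, gave 0.03, 0.21, 0.05, 0.24, -0.04, 0.07 and 0.19, with a mean of 0.11 ± 0.11 (adjusted p = 0.324). LD33980 exceeded SD07306 by 0.19 ± 0.15 and on 6 of 7 arrays, a difference with p = 0.0312 in the exact permutation test and 0.0938 after adjustment over the 3 genes, where 0.0156 is the smallest p that 7 arrays allow. Among 841 genes with 2 features the median difference between clones was 0.05, and that of Nak was larger than 93.5% of them. When the features of each gene were averaged before the fit, Nak did not pass (mean 0.20, adjusted p = 0.0696), while O-fut1, bun and Dap160 did, beside 5.59% of all genes. The call of Nak therefore rests on 1 of its 2 clones, and which part of the transcripts each clone covers was not analysed here.

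Dap160 was the member that fell. It encodes the fly intersectin, a scaffold protein that holds dynamin and other endocytic proteins together. Clone LD23686 gave -0.41, -0.40, -0.25, -0.42, -0.48, -0.54 and -0.03 on arrays 1 to 7. The values of 6 arrays lay well below 0 and that of array 7 lay near it. The mean of -0.36 ± 0.17 (SD, n = 7) corresponds to 77.9% of the control level, with log2 limits of -0.51 and -0.21. Its adjusted p of 0.0143 was the lowest among the members and put it at rank 247 of all 10227 features. Without array 7 the adjusted p was 0.00628, and the call was lost without array 2, 4 or 5 (0.0566, 0.0545 and 0.0539).

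The gene bun encodes transcription regulators of the TSC-22 family, which are known from egg chamber patterning, where they act against Notch, and from growth control. Clone GH13775 gave 0.42, 0.71, 0.46, 0.41, 0.47, 0.05 and 0.20 on arrays 1 to 7. All values were above 0, but those of arrays 6 and 7 were the lowest. The mean was 0.39 ± 0.21 (SD, n = 7), a 1.31-fold rise with log2 limits of 0.22 and 0.56 and an adjusted p of 0.0176. Without array 6 the adjusted p was 0.00751, and the call was lost without array 2, 4 or 5 (0.0567, 0.0622 and 0.0599).

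For mam, the gene of the co-activator Mastermind, the clones did not pass. GH07841 ranged from -0.09 on array 1 to 0.42 on array 7 with a median of 0.08, and its mean was 0.13 ± 0.19 (SD, n = 7; adjusted p = 0.338). The second clone, RH56202_ReAmp, ranged from -0.33 on array 6 to 0.31 on array 7 with a median of 0.10, and its mean was 0.05 ± 0.20 (adjusted p = 0.783). The 95% limits were -0.02 and 0.29 for GH07841 and -0.12 and 0.22 for RH56202_ReAmp. Without array 7 the means were 0.09 for GH07841 and 0.0066 for RH56202_ReAmp, and without array 6 the latter was 0.11 (adjusted p = 0.328). The clones differed by 0.08 ± 0.21 (exact permutation test, p = 0.344; adjusted 0.344).

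**Figure D2:**
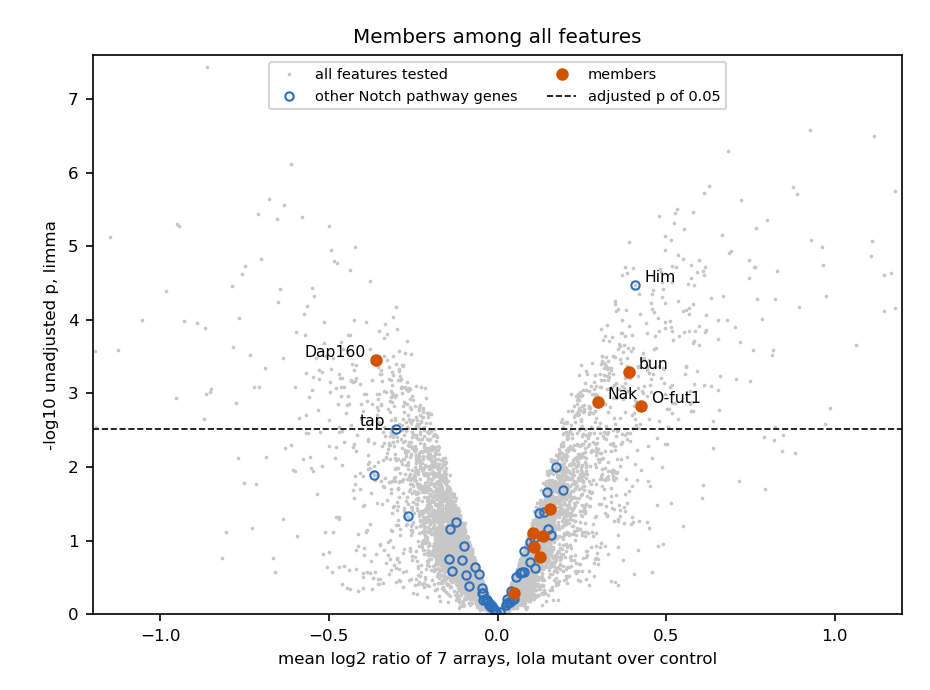
Mean log2 ratio of 7 arrays against -log10 of the unadjusted limma p for all 10227 features (grey), 54 features of other Notch pathway genes (open blue circles) and the 10 member features (orange); 31 features lie outside the plotted range. The 4 called members lie above the dashed line of an adjusted p of 0.05, at means of -0.36 to 0.43, well inside the spread of all called features, and among the 54 features Him and tap lie on or above it.

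The 4 calls were of modest size and stood close to the threshold. By size of the mean they lay between the 92.4th percentile (Nak LD33980) and the 96.4th percentile (O-fut1) of all features. Called features had a median absolute log2 ratio of 0.40, so O-fut1 lay slightly above the middle of all calls and the other 3 below it. Leaving out array 2, 4 or 5 ended all 4 calls, with adjusted p values from 0.0539 to 0.107, and leaving out array 3 ended that of Nak (0.0528). Over all single arrays left out, the mean stayed between 0.35 and 0.49 for O-fut1, 0.34 and 0.45 for bun, 0.25 and 0.33 for Nak LD33980, and -0.41 and -0.33 for Dap160.

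The dye of the mutant RNA did not turn any of the 4. On the 3 Cy5 arrays and the 4 Cy3 arrays the means were 0.34 and 0.49 for O-fut1, 0.31 and 0.45 for bun, 0.22 and 0.36 for Nak LD33980, and -0.40 and -0.33 for Dap160. In a fit with a term for dye orientation, 0 of the 10 member features passed for that term in limma, with adjusted p values from 0.522 to 0.956, while 1180 of all features did. With the 4 Cy3 arrays alone all 4 members passed in limma, where 2501 of all 10227 features passed, against 625 with all arrays. Passing was thus far more common over all features in that fit, while the count of member features that passed stayed at 4. With the 3 Cy5 arrays alone 0 features of the whole table passed in limma, although 1751 features and 3 of the members had an unadjusted p under 0.05.

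All 4 called members are on the second chromosome, where lola lies and where the mutant chromosome was recombined. RefSeq (Release 6 plus ISO1 MT) places bun, Nak and Dap160 on 2L and O-fut1 and mam on 2R, together 7 of the 10 member features, and fng on 3L and Dl on 3R. Of all features with 1 gene and a known arm, 6.4% of the 3359 on the second chromosome and 5.2% of the 5076 elsewhere were called. Modifiers linked to lola cannot be told apart from lola in these crosses. Between lola and O-fut1 lie 499 protein-coding genes, and between O-fut1 and mam lie 9. Among the 10 protein-coding genes on each side of the 4 called members, 47 were measured and 4 were called, beside 6.04% of all genes. These were CCT4 (0.25) and CG6153 (-0.28) near bun, CG10621 (0.26) near Nak, and del (0.37) near Dap160. Around O-fut1, 11 neighbours were measured and 0 passed in limma. Around the members that were not called, 31 neighbours were measured and 1 was called, O-fut1 itself (0.43) near mam. These neighbours were named after their values were seen.

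Of 92 further pathway genes listed by role, 47 were measured by 54 features under the same rule, and 1 rose and 1 fell. This is 4.26% of the genes, close to the 6.04% over all genes. Their median log2 ratio was 0.00, beside -0.01 for all features. By role, none of the measured genes passed among ligands (1 gene), glycosylation enzymes (3), receptor cleavage (2), ligand endocytosis (4), receptor endocytosis and trafficking (13) and nuclear factors (8). In these roles limma gave 5 features with an unadjusted p under 0.05, where 19.7% of all features had one. Among named regulators, neur, a ubiquitin ligase that drives ligand endocytosis, had a mean of 0.07 ± 0.14 (SD, n = 7), numb, an endocytic inhibitor of Notch, -0.0034 ± 0.08 (0.0084 without array 6), Psn, the protease subunit of the presenilin complex, -0.02 ± 0.12, and gro, the co-repressor used by Enhancer of split proteins, -0.11 ± 0.20. Their adjusted p values ran from 0.492 to 0.98. Ser, mib1, spdo, nct and H had no feature under the rule and were not analysed here. The 95% limits of numb were -0.11 and 0.11.

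**Figure D3:**
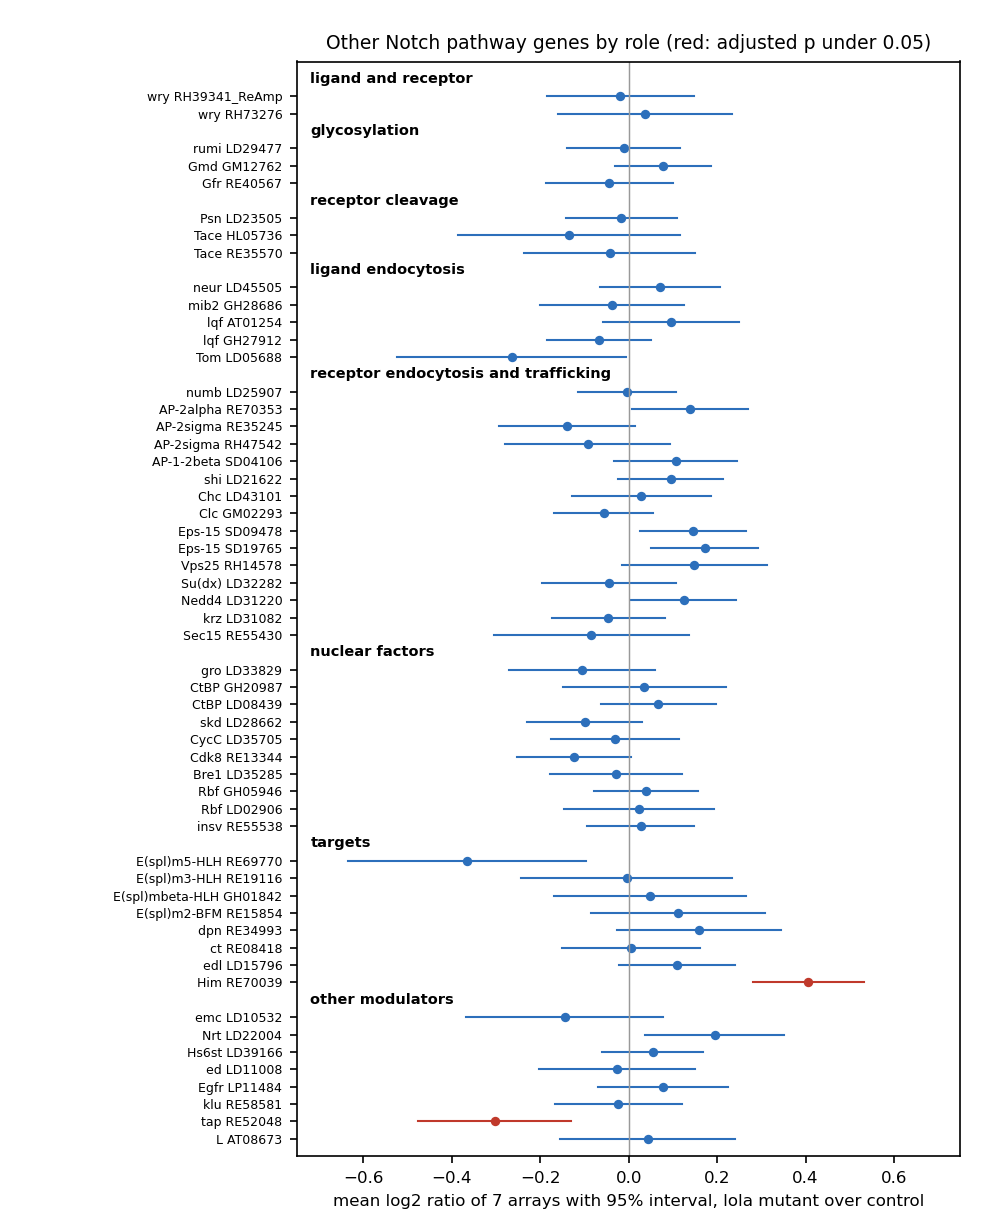
Mean log2 ratio of 7 arrays with its 95% interval for 54 features of 47 other Notch pathway genes, ordered by role, with features of an adjusted p under 0.05 in red and without the extra clones of sca, chn and L. Him at 0.41 and tap at -0.30 are the red features, and E(spl)m5-HLH at -0.37 has a wide interval.

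The rule missed 3 clones of listed genes, which the study's own clone table names. The platform annotation gave RE38281 (sca) and LD23883 (chn) no symbol, and RE53130 (L) a gene ID that RefSeq does not hold. RE38281, for the secreted Notch modulator Scabrous, gave 0.66, 0.23, 0.45, 0.55, 0.22, 1.01 and 0.32 on arrays 1 to 7. All values were above 0 and array 6 was highest. Its mean was 0.49 ± 0.28 (SD, n = 7; adjusted p = 0.0162), or 0.40 without array 6 (adjusted p = 0.014), and its call was lost without array 4 (0.0612). LD23883, for the zinc-finger repressor Charlatan, had a mean of 0.56 ± 0.22 (adjusted p = 0.00324) and passed whichever array was left out, although its dye term passed too (adjusted p = 0.0458), with means of 0.36 on the Cy5 arrays and 0.72 on the Cy3 arrays. RE53130, for the eye growth gene Lobe, had a mean of 0.25 ± 0.10 (adjusted p = 0.0241), and its call was lost without array 2, 3, 4, 5 or 7 (adjusted p up to 0.0941), while the L clone under the rule, AT08673, had 0.04 ± 0.26 (0.856). All 3 genes lie on 2R. With these clones, 5 of 49 genes passed, 4 higher and 1 lower. That clone table holds only clones that the study called on these arrays, so it can add calls but no genes that stayed level, and this count is not set against the background.

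Under the rule, the pathway gene that rose was Him, which encodes a nuclear protein that holds back muscle differentiation and responds to Notch in muscle precursors. Its clone RE70039 gave 0.28, 0.57, 0.32, 0.29, 0.41, 0.56 and 0.42 on arrays 1 to 7. The values were close together and all above 0, on array 6 too. The mean of 0.41 ± 0.12 (SD, n = 7) is a 1.33-fold rise with an adjusted p of 0.00328, and it passed whichever array was left out (0.00557 to 0.016). The gene that fell was tap, which encodes a bHLH factor of the Neurogenin family and is not a core component of the pathway. Its clone RE52048 ranged from -0.57 on array 2 to 0.04 on array 7 with a median of -0.29. The mean was -0.30 ± 0.21, and its adjusted p of 0.0497 lay at the threshold. The call was lost without array 1, 2, 3, 4 or 5, with adjusted p values up to 0.157.

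The Enhancer of split complex holds the best known direct targets of Notch, and 4 of its genes were measured. None passed over all 7 arrays. E(spl)m5-HLH, a bHLH repressor, gave -0.36, -0.74, -0.53, -0.50, -0.59, 0.41 and -0.25 on arrays 1 to 7. It was thus below 0 on 6 arrays and above 0 on array 6 alone. Its mean was -0.37 ± 0.38 (SD, n = 7; adjusted p = 0.117), and without array 6 it was -0.49 with an adjusted p of 0.00574, so this 1 array decides the call. The bHLH genes E(spl)m3-HLH and E(spl)mbeta-HLH also had their highest value on array 6 (0.54 and 0.51) and their lowest on array 1 (-0.44 and -0.41). E(spl)m2-BFM, a gene of the Bearded family in the complex, ranged from -0.37 on array 1 to 0.43 on array 4. The means of these 3 were -0.0046 ± 0.33, 0.05 ± 0.29 and 0.11 ± 0.26, with adjusted p values of 0.988, 0.853 and 0.547. Without array 6 they were -0.10, -0.03 and 0.08, so that of E(spl)mbeta-HLH turned sign, and none passed (adjusted p = 0.591, 0.886 and 0.689). The bHLH genes of the complex are related in sequence, and how far each clone also binds RNA of its relatives was not tested.

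Tom, another Bearded family gene whose protein inhibits Neuralized, was singled out after its values were seen, for a pattern like that of E(spl)m5-HLH. It gave -0.61, -0.47, -0.56, -0.01, -0.45, 0.37 and -0.12 on arrays 1 to 7. Only array 6 was above 0. The mean was -0.26 ± 0.36 (adjusted p = 0.242), and it was -0.37 without array 6 (adjusted p = 0.0394). On array 6 the muscle list had a mean of -1.53 over 7 of 12 listed genes, and the epidermis and cuticle list -0.97 over 10 of 12, where the other arrays lay between -0.24 and 0.39. The neuron list (-0.53 over 2 of 10 genes, elsewhere -0.22 to 0.19), the tracheal list (-0.53 over 4 of 8, elsewhere -0.15 to 0.22) and the haemocyte list (-0.07 over 8 of 10, elsewhere 0.13 to 0.35) were also lower there than on any other array. Those of neuroblasts (0.37 over 6 of 8) and of fat body and gut (-0.24 over 6 of 8) stayed within their ranges on the others, and the glial list (-0.28 over 6 of 8) lay at the low end of its own. Their part in the Enhancer of split and Tom values was not tested. Over all arrays, and beside 6.04% of all genes, 3 of 6 neuroblast genes rose and 1 fell, 3 of 8 haemocyte genes rose, 2 of 6 glial genes fell and 2 of 6 genes of fat body and gut fell. In the neuron, muscle, epidermis and cuticle, and tracheal lists limma called 0 genes, with 2, 0, 1 and 1 at an unadjusted p under 0.05. Of all features tested, 19.7% had an unadjusted p under 0.05 in limma.

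**Figure D4:**
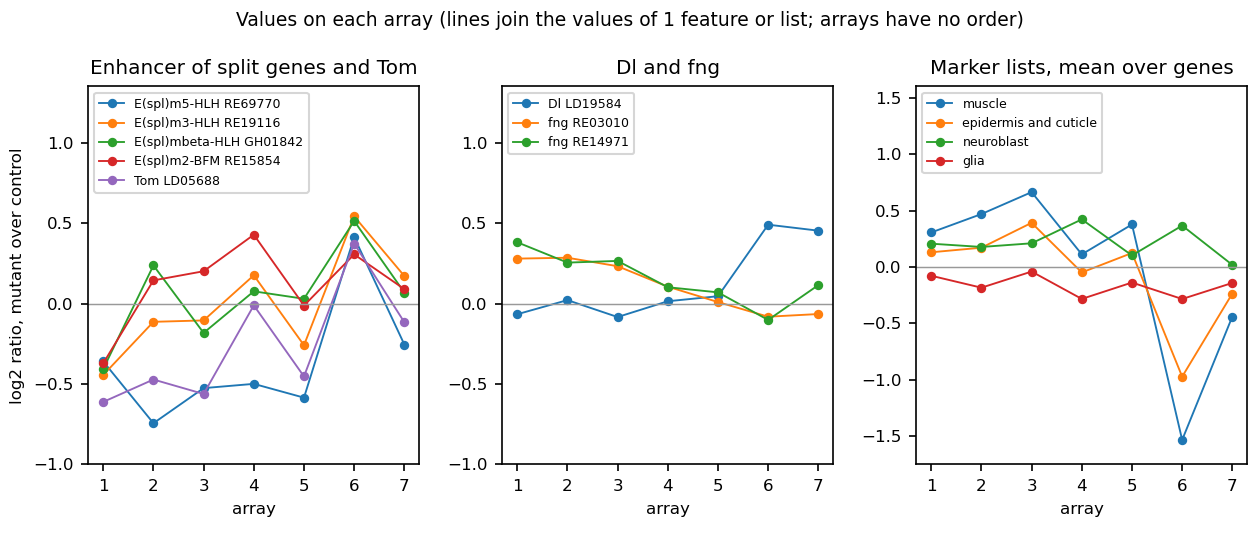
Log2 ratios of mutant over control on each of the 7 arrays for 4 Enhancer of split genes and Tom (left), for Dl and both clones of fng (middle), and for the means of 4 marker lists (right, on a wider axis). On array 6 the Enhancer of split genes and Tom lie between 0.31 and 0.54 and the muscle mean at -1.53, and Dl is near 0.5 on arrays 6 and 7 while fng is at its lowest on array 6.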

How the data were processed

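Total RNA was labelled and hybridised to spotted cDNA arrays of Drosophila Gene Collection clones, 7 arrays of 7 independently collected pairs. The authors read spots with GenePix, applied no background correction and normalised with limma, whose version is not stated in the sources used here: print-tip loess was run within each array and scale normalisation across arrays. They deposited the resulting log2 ratios. The table held 10376 features with 0 missing values; 149 control spots were left out. Signs were turned as described above. Spot intensities were not used, so dim features could not be told apart; precision is limited by the 7 arrays. Genes came from the platform annotation (8598 features with 1 symbol, 517 with several, 1112 with none), and 8454 were matched by gene ID to RefSeq for arms and gene order; 55 retrotransposon, multiple or chimeric clones were left out of gene names. The build of the clones is not given in the sources used here, so no coordinates or sequences are printed.

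The limma functions lmFit and eBayes (limma 3.58.1, R 4.3.3) gave each feature's mean ratio, which was tested against 0, two-sided, with Benjamini-Hochberg adjustment over all 10227 features and a threshold of 0.05 with no minimum fold. An adjusted p is from this fit unless another setting is named. A gene was called when at least 1 feature passed and none passed the other way. The scripts were tested on simulated data. Named were all members, the other pathway genes that passed, the measured Enhancer of split genes, neur, numb, Psn and gro. The members and all gene lists were chosen with earlier results of these data known. Alternatives were leaving out each array, a dye term, each dye orientation alone, array weights, quantile normalization, median centring, a minimum fold of 1.1, robust eBayes, keeping control spots and averaging clones. Readings of the other pathway genes under them, the 3 clones of sca, chn and L, and Tom were added after seeing the data.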

Additional observations from a re-analysis of the deposited data

Results flagged for a closer look

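E(spl)m5-HLH was 0.41 on array 6, while the other 6 arrays lay between -0.74 and -0.25, and this gap to its nearest neighbour took 57.7% of the whole range. It was the single outlying value among 28 sets of 7 values that were looked at (the 10 member features, 10 named pathway features and 8 marker lists), and chance flags about 1 in 20 such sets. Array 6 is the one on which the muscle marker mean was -1.53, and the part of this in the value of E(spl)m5-HLH was not tested.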

How the results depend on the processing

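The 4 member features and 4 member genes called became 0 with the 3 Cy5 arrays alone and with a minimum fold of 1.1, and ranged from 0 to 4 when 1 array was left out. They stayed at 4 with a dye term, the 4 Cy3 arrays alone, array weights, quantile normalization, median centring, robust eBayes and control spots kept. With the features of a gene averaged, 3 member genes passed. The 625 calls over all features were 2501 with the Cy3 arrays alone, 2057 with array weights, 184 with the minimum fold and 0 with the Cy5 arrays alone, and 246 to 775 with 1 array left out, lowest without arrays 2, 4 and 5 (246, 277 and 288). The 2 other pathway genes called became 4 with the Cy3 arrays alone, 5 with array weights, 0 with the Cy5 arrays alone, 1 with quantile normalization, with median centring, with the minimum fold and with control spots kept, and 1 to 4 with 1 array left out; adding the 3 clones of sca, chn and L gave 5. Of the 10 member features, only RH56202_ReAmp of mam changed sign, to -0.017 with the Cy5 arrays alone. Some of these fits used 6, 4 or 3 arrays, and the causes of the shifts were not tested. Each array is a ratio of 1 mutant and control pair, so the test of the mean ratio against 0 already uses the pairing.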
